A study of Mus musculus with 6 samples.

Results

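The genes described here were 33 predicted loci, out of 19113, whose listed expression was higher in the liver of every laboratory mouse than of every wild mouse. A predicted locus was a gene name made of Gm and a number, or one ending in Rik. It had to be listed once for every mouse and never marked HIDATA, the Cufflinks label for a locus with too many fragments. Such names made up 40.5% of the 47243 names used. The 33 were selected on their measured values: their lowest FPKM (fragments mapped to a transcript, scaled to its length and to the size of the library) among the 3 laboratory mice was at least 1 and at least 4 times the highest FPKM among the 3 wild mice. Their laboratory and wild values are therefore a description and support nothing by themselves. Of all predicted loci, 0.173% met the rule, against 0.156% of other gene names (44 genes). Among names with an FPKM of at least 1 in all laboratory mice, it was met by 4.17% of 792 predicted loci and 0.572% of 7692 other names. The mirror rule, with wild above laboratory, was met by 161 predicted loci, 0.842% of them, and by a larger share of other names (659 of 28130). The 161 were 17.3% of the 931 predicted loci with an FPKM of at least 1 in all wild mice.

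RNA-Seq was performed on polyA RNA from liver that had been frozen without formalin. The laboratory group was 3 inbred C57BL6 males aged 17 to 18 weeks. The wild group was 3 outbred adult Mus musculus of unstated age, live-trapped in New South Wales and then kept for 3 months under ordinary husbandry, of which wild mouse 1 was male and wild mice 2 and 3 were female. The labels name no engineered allele and no treatment in either group. The paper gives a longer interval since preparation for the laboratory specimens than for the wild ones. Origin, rearing, age, time since preparation and, in part, sex cannot be told apart as sources of a difference between the groups.

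The tissue label was checked against marker genes. The 4 hepatocyte markers with usable values (Ttr, Apoa1, Serpina1c and Tat) summed to an FPKM between 28994 and 40041 in laboratory mice, against 17005 to 18405 in wild mice. The other 3 were marked HIDATA or were not listed once for every mouse. Sums of stellate cell markers were between 27.5 and 42.5 in laboratory mice, against 71.4 to 128 in wild mice, those of biliary markers 29.7 to 64.6 against 12.2 to 27.6, and those of erythrocyte markers 1348 to 5149 against 738 to 1588, ranges that overlap. Of the hepatocyte markers, 3 were higher and 1 lower in every laboratory mouse, and of the 7 erythrocyte markers 3 were higher in every laboratory mouse. Of the 5 stellate cell markers 3 were lower and 1 higher, and of the 5 biliary markers 2 were higher. The share of all genes with such a gap is not given, so these counts are a description only. In bulk liver, fewer cells of a type and less RNA per cell cannot be told apart, and the part of these levels in the values below was not tested.

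Gm names are placeholders that Mouse Genome Informatics gives to gene models awaiting a proper name, and Rik names mark genes first seen as RIKEN cDNA clones. Many of these loci are long noncoding RNAs (lncRNAs), transcripts with no long reading frame, and many others are processed pseudogenes, copies of a spliced mRNA that were written back into the genome. A recent pseudogene can be nearly identical to its parent gene, so that a short read may match both, and the value listed for either is then uncertain. The reads here were aligned to GRCm38.p6, the reference assembly of the C57BL/6J strain, from which wild house mice differ at many sites.

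RefSeq classed 22 of the 33 loci (66.7%) as lncRNA, 8 (24.2%) as pseudogene and 3 (9.09%) as protein coding. Among the 760 predicted loci with a RefSeq class and an FPKM of at least 1 in all laboratory mice, 25.9% were lncRNAs, 55.1% pseudogenes and 14.9% protein coding. The members thus held a larger share of lncRNAs and a smaller share of pseudogenes than the expressed predicted loci from which they were drawn, a comparison of shares for which no test was made. They lay on 13 chromosomes, with 8 on chromosome 1 (24.2%, against 8.21% of the 792 predicted loci with an FPKM of at least 1 in all laboratory mice) and 4 on chromosome 10. No member lay within 50000 bases of another, the nearest pair being Gm40794 and Gm46205, 1625146 bases apart.

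Of the 22 members with a GENCODE vM21 transcript under the same name, 9 resembled another gene (at least 80% identity over at least 50% of the transcript) and 13 did not, and the other 11 members were not compared. The closest coding gene was Rpl29, Rpl35 or Rpl37a for 5 of them, each of which encodes a protein of the large ribosomal subunit. To show how little separates such loci, a stretch of 120 bases of 4 of them is given with every base that differs from the coding gene in capitals. The stretches are GENCODE vM21 transcripts, 5′ to 3′. Gm10925 (a pseudogene on chr1:24613971-24614651, minus strand) had no difference from mt-Atp6 over all 678 aligned bases. Gm2000 (chr1:156366040-156366484, plus strand) is a pseudogene in RefSeq but coding in GENCODE, is shown from the start of the reading frame GENCODE gives it, and differed from Rpl35 at 2 of 445 aligned bases. Gm5561 (chr1:179520245-179520915, minus strand, bases 114 to 233) differed from Rpl29 at 8 of 480. Gm12447 (chr4:46304143-46327904, plus strand, bases 200 to 319) had 19 mismatches to Rpl29 over 455 aligned bases, gaps not counted (94.3% identity). In its stretch inserted bases are in capitals too, and deleted ones are not shown. The coordinates are listed spans, which for Gm12447 cover 23762 bases, while the transcript compared has 470.
Gm10925: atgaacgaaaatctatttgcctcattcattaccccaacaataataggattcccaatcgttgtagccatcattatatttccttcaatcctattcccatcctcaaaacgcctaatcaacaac
Gm2000: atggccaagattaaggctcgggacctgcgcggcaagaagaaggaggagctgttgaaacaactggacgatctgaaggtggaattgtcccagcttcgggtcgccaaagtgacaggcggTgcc
Gm5561: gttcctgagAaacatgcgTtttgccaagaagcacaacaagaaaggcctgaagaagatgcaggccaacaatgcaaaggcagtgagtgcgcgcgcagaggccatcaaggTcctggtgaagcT
Gm12447: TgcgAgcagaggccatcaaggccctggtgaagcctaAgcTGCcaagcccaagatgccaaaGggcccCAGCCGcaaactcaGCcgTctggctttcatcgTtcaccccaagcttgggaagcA

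RefSeq promoters on GRCm38.p6, from 250 bases before to 50 after a start, were found for 20 of the members (23 promoters). Their GC content had a median of 52%, against 52.7% over all 32851 promoters. None held the TATA box letters TATAAA on either strand, which 13.6% of all promoters held. The nuclear receptor half-site AGGTCA was in 4 (17.4%, against 16.3% of all) and the HNF1 half-site GTTAAT in 1 (4.35%, against 7.10%). The STAT5 motif TTCNNNGAA, the site of the factor that carries the growth hormone signal behind sex-biased liver expression, was in 4 (17.4%, against 8.30% of all), namely those of 2200002D01Rik, Gm35696, Gm3704 and Gm46205. Motifs were searched on both strands, and a match is a description of the letters only. The promoters of the most abundant lncRNA, 0610005C13Rik (chr7:45575127-45575426, minus strand), and of 3 lncRNAs with the STAT5 letters, Gm46205 (chr10:125161108-125161407, plus), Gm35696 (chr10:121509848-121510147, plus) and Gm3704 (chr5:151406254-151406553, plus), are shown 5′ to 3′ with those letters in capitals. The promoter of 0610005C13Rik held none of the 4 motifs.
0610005C13Rik: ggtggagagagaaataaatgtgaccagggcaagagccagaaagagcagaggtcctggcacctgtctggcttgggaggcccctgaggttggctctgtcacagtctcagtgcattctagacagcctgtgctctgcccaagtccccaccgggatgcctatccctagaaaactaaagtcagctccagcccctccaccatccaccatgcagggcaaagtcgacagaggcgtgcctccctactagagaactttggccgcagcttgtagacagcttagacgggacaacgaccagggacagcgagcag
Gm46205: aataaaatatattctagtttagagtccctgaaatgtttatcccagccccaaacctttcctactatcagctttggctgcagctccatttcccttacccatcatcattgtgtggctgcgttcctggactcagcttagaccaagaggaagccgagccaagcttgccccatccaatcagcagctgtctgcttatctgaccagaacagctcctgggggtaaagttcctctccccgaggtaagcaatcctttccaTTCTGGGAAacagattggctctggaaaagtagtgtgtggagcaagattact
Gm35696: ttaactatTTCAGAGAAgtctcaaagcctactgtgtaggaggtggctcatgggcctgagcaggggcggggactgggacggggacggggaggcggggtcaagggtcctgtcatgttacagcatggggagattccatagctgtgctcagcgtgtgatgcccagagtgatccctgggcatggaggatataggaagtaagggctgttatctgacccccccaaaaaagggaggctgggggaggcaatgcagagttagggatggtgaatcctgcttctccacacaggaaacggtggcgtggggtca
Gm3704: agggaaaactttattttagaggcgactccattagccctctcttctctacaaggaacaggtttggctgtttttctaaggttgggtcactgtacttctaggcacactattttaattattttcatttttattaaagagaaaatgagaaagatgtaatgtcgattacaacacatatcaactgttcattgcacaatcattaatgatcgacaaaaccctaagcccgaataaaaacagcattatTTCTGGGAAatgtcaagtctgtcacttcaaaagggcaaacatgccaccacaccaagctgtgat

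The mean laboratory FPKM of the members ran from 1.31 to 290, with a median of 5.97. It was at least 100 for 2 members, at least 10 for 11 and under 5 for 14. Summed over the 33 loci, the FPKM was 786, 696 and 850 in laboratory mice against 118, 82.5 and 105 in wild mice. FPKM as a whole was lower in laboratory mice: the median over the 7938 genes with an FPKM of at least 1 in all 6 mice was between 5.26 and 6.56 in laboratory mice and between 10.7 and 11.3 in wild mice. The members therefore ran against the general shift, and after scaling each mouse to the same median 105 predicted loci met the rule, including all 33. All values below are FPKM unless zFPKM is named.

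**Figure D1:**
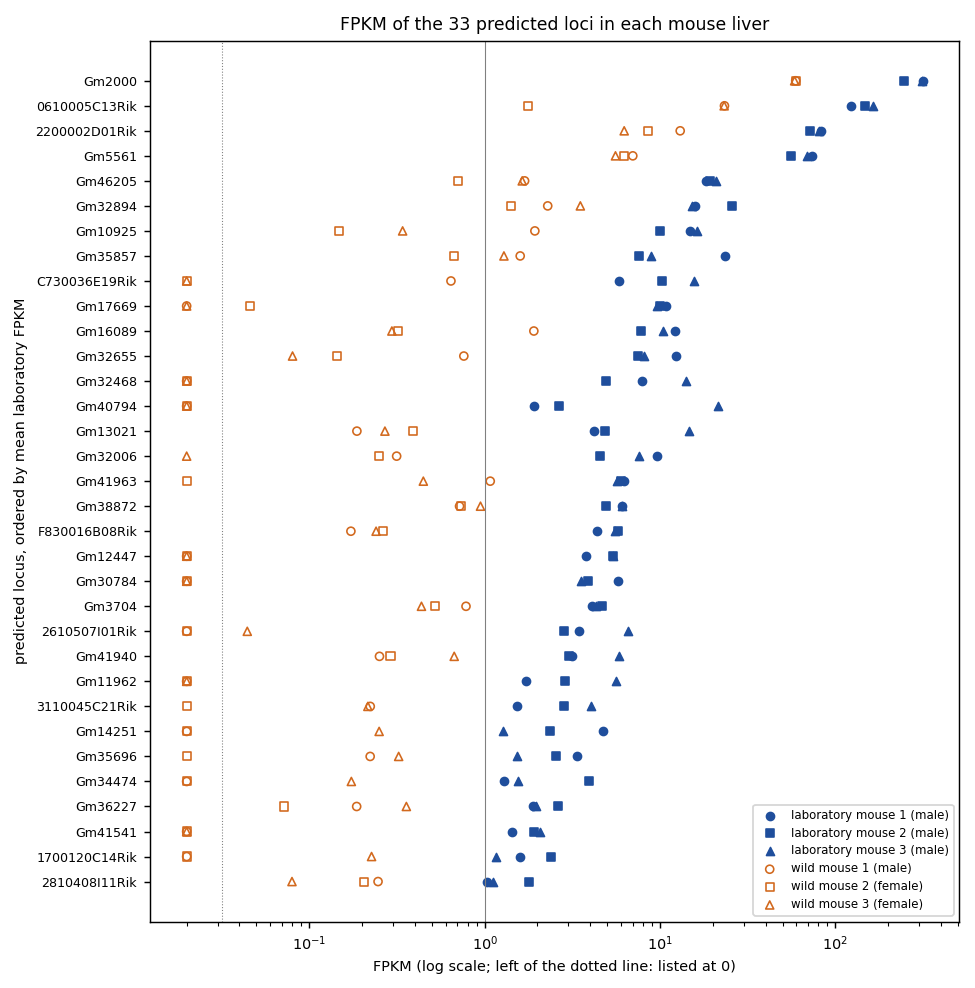
FPKM of each of the 33 predicted loci (rows, ordered by mean laboratory FPKM) in each of the 3 laboratory mice (filled blue) and 3 wild mice (open orange), on a log axis whose left margin holds values listed at 0. Every laboratory point lies to the right of every wild point, as the rule requires, and 6 loci are listed at 0 in all wild mice.

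The most abundant member was Gm2000, the near copy of Rpl35, with 314, 245 and 311 in laboratory mice against 59.4, 59.8 and 58.6 in wild mice. The second was 0610005C13Rik, a lncRNA on the strand opposite Bcat2, with 123, 148 and 163 in laboratory mice against 23.3, 1.76 and 23.2 in wild mice. Wild mouse 2 stood apart at this lncRNA, with a level far under that of the wild male and of the other wild female. The third, 2200002D01Rik, is a small coding gene on chromosome 7 and had 82.6, 71.8 and 80.6 in laboratory mice against 13.0, 8.55 and 6.25 in wild mice. Its values were close together within each group, with a laboratory mean of 78.3 ± 5.77 (SD, n = 3) and a wild mean of 9.28 ± 3.45 (SD, n = 3).

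Gm5561, a processed pseudogene of Rpl29, had 73.2, 55.9 and 68.9 in laboratory mice against 6.995, 6.20 and 5.57 in wild mice. Gm46205, a lncRNA, had 18.3, 19.3 and 20.9 in laboratory mice against 1.69, 0.706 and 1.64 in wild mice. Both were even within the laboratory group. Gm32894, a lncRNA that overlaps Baat, was listed at 15.7, 25.7 and 15.2 in laboratory mice against 2.29, 1.42 and 3.51 in wild mice. Gm10925, the copy of mitochondrial Atp6, was listed at 14.8, 10.0 and 16.2 in laboratory mice against 1.93, 0.147 and 0.341 in wild mice. The wild male was the highest of the wild mice at Gm10925, as at 14 of the 33 members.

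Gm35857, a pseudogene that resembles Atp5md, a small subunit of mitochondrial ATP synthase, had 23.3, 7.58 and 8.88 in laboratory mice against 1.60, 0.667 and 1.29 in wild mice. Laboratory mouse 1 alone had more than laboratory mice 2 and 3 together. The lncRNA C730036E19Rik had 5.84, 10.2 and 15.7 in the laboratory mice and 0.643 in the wild male, and was listed at 0 in both wild females. Gm17669, another pseudogene of Rpl29, had 10.8, 10.0 and 9.65 in the laboratory mice, was listed at 0 in wild mice 1 and 3 and had 0.0462 in wild mouse 2. Of the 10 most abundant members, C730036E19Rik and Gm17669 were the ones listed at 0 in some wild mouse.

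Further down the order, 6 members were listed at 0 in all 3 wild mice: the pseudogenes Gm12447 and Gm11962 and the lncRNAs Gm30784, Gm32468, Gm40794 and Gm41541. No fold is given for them, since a value of 0 has no known floor here. Another 6 members were listed at 0 in 2 wild mice and 4 in 1, while 17 had a value above 0 in every wild mouse. Gm12447, which RefSeq calls protein coding and GENCODE a processed pseudogene of Rpl29, had 3.77, 5.36 and 5.37 in the laboratory mice. Gm40794 had 1.90, 2.67 and 21.5 in the laboratory mice. Its highest laboratory value was 11.3 times its lowest, the largest such ratio among the 33 members, and laboratory mouse 3 stood apart from the rest of its group.

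Within the inbred laboratory group the median coefficient of variation was 28.4% for the members, against 18.8% over the 792 expressed predicted loci. The 2 sets were not matched for level or fragments and the rule used these values, so nothing is read from the difference. For 13 members the highest laboratory mouse had at least 2 times the lowest, Gm13021 (4.20, 4.83 and 14.7) and Gm32468 (7.87, 4.94 and 14.1) among them. Laboratory mouse 3 was the highest of its group at 14 members, laboratory mouse 1 at 12 and laboratory mouse 2 at 7. Gm41963 (6.24, 5.96 and 5.71) had the lowest coefficient of variation of all members, 4.46%. Other less abundant members with little spread were Gm3704 (4.08, 4.67 and 4.29), a lncRNA, and F830016B08Rik (4.35, 5.74 and 5.56), a coding gene. The lncRNAs Gm32655, 2610507I01Rik, Gm41940, Gm35696, Gm34474 and Gm36227 had mean laboratory levels from 2.15 to 9.30.

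Gm2000, Gm16089 and 2810408I11Rik lay just inside the fold threshold, with a lowest laboratory value 4.10, 4.11 and 4.18 times the highest wild value. The lncRNA 2810408I11Rik had 1.03, 1.78 and 1.12 in laboratory mice against 0.247, 0.206 and 0.0797 in wild mice. Just outside were Gm39770 (2.19, 1.46 and 3.64 against 0.128, 0.107 and 0.372, a ratio of 3.92), Gm15638 (1.64, 1.46 and 2.04 against 0.362, 0.124 and 0.372, also 3.92) and Gm19705 (2.61, 3.08 and 2.31 against 0.415, 0.347 and 0.604, a ratio of 3.83). The 2 sides of the threshold therefore differed little.

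The files hold no counts and the depth is unknown. For 5 mice Cufflinks gave an upper bound on each FPKM, and if that bound is 2 SDs of a Poisson count above the estimate, it implies how many fragments stood behind the value. By this reading Gm2000 rested on 1207 and 1407 fragments in laboratory mice 2 and 3, and 0610005C13Rik on 1214 and 1203. The number was under 20 in both mice for 8 members: Gm46205, Gm11962, Gm14251, Gm35696, Gm34474, Gm41541, 1700120C14Rik and 2810408I11Rik. For Gm41541 it was 3.91 in each, and for Gm46205, the fifth most abundant member by FPKM, it was 19.8 in each. A high FPKM did not by itself mean many fragments, since FPKM divides by transcript length.

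**Figure D2:**
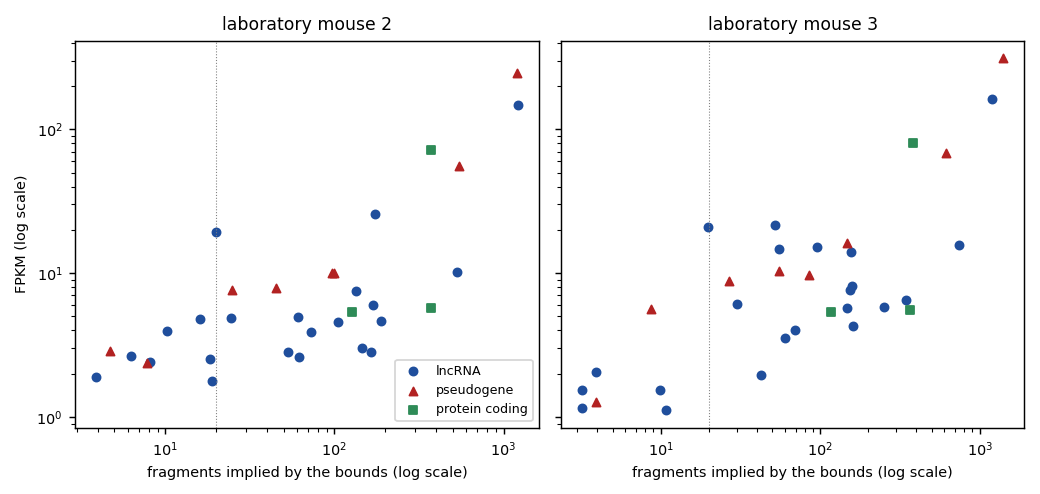
FPKM of each member (log axis) against the number of fragments implied by its Cufflinks bound (log axis) in laboratory mice 2 and 3, by RefSeq class; the dotted line is at 20 fragments. In both mice Gm46205 lies at the line with an FPKM of 19.3 and 20.9.

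The parent genes of the pseudogenes gave values that the rule had not used. A parent and its near copy may share reads, however, so these values may not be independent of the selected ones. Rpl29 had 91.8, 92.6 and 84.5 in laboratory mice against 24.1, 22.1 and 22.3 in wild mice. On the scale of zFPKM, the deposited score that centres and scales log2 FPKM within each mouse, it was higher in laboratory mice by 0.93 (standard error 0.138, limma with Benjamini-Hochberg adjustment over 18628 genes, adjusted p = 1.29e-09). In that fit 7.17% of the genes tested were higher and 7.28% lower in laboratory mice. Its standard errors and p-values rest on the variance of genes at a similar level, not on a gene's own spread between mice. Rpl35 was also higher, with 905, 936 and 955 against 390, 394 and 377 (0.70 zFPKM, standard error 0.0982, limma with Benjamini-Hochberg adjustment, adjusted p = 8.65e-11).

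The parents that act in mitochondrial oxidative phosphorylation were higher as well. Uqcrb, a subunit of complex III, had 759, 613 and 553 in laboratory mice against 446, 386 and 390 in wild mice (0.48 zFPKM, limma with Benjamini-Hochberg adjustment, adjusted p = 4.96e-05), and its copy Gm16089 had 12.2, 7.83 and 10.4 against 1.91, 0.319 and 0.296. Atp5md had 761, 735 and 595 against 446, 432 and 420 (0.49 zFPKM, limma with Benjamini-Hochberg adjustment, adjusted p = 2.26e-05). Rpl37a, the parent of Gm14251, had 384, 411 and 297 against 436, 426 and 406 and was not called (0.17 zFPKM, adjusted p = 0.284 from limma), and without laboratory mouse 3 it was (adjusted p = 0.0434). Polr2d, a subunit of RNA polymerase II that Gm11962 resembles at 80.8% identity, had 2.94, 2.57 and 2.72 against 4.196, 3.92 and 3.49 and was not called (0.07 zFPKM, adjusted p = 0.905 from limma). In FPKM, Polr2d was lower in every laboratory mouse than in every wild mouse and the mean of Rpl37a was lower in laboratory mice, opposite in sign to their zFPKM differences. Of the 6 parents with usable values, limma on zFPKM thus called 4 higher and none lower. With each mouse set to a median of 0, Rpl35, Uqcrb and Atp5md were no longer called (adjusted p = 0.0760, 0.159 and 0.15 from limma). Without limma's trend the same 3 were not called either (adjusted p = 0.0711, 0.179 and 0.165). Without the filter on low values none of the 4 was called (adjusted p = 0.144, 0.264, 0.306 and 0.307 for Rpl29, Rpl35, Uqcrb and Atp5md, from limma).

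A pseudogene's level as a share of its parent's also differed between the groups. Gm2000 stood at 34.7%, 26.2% and 32.6% of Rpl35 in laboratory mice against 15.2%, 15.2% and 15.5% in wild mice. Gm5561 stood at 79.7%, 60.3% and 81.5% of Rpl29 in laboratory mice against 29.0%, 28.0% and 24.9% in wild mice. These shares restate the selection, since the pseudogene's own value entered the rule. At both pairs the ratio of mean laboratory to mean wild FPKM was larger at the pseudogene than at the parent. The rule fixed that outcome, since it required at least 4 at the pseudogene. The parents had 2.41 (Rpl35) and 3.92 (Rpl29), and nothing is read from the difference.

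**Figure D3:**
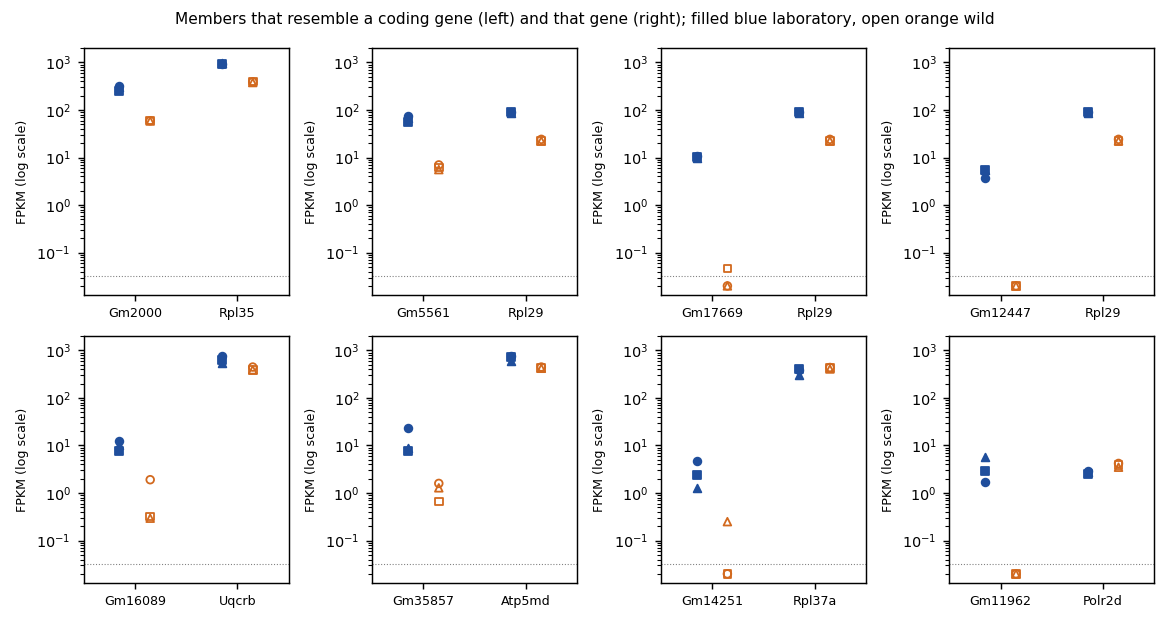
FPKM (log axis) of 8 members (left in each panel) and of the coding gene each resembles (right), in 3 laboratory mice (filled blue) and 3 wild mice (open orange); points under the dotted line are listed at 0. Rpl29, Rpl35, Uqcrb and Atp5md lie higher in every laboratory mouse than in every wild mouse, and Rpl37a does not.

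Rpl29 has a large family of near copies, and together with Rpl29 itself 34 of these loci had usable values, 3 of them members. Summed over all 34, the FPKM was 246, 238 and 231 in laboratory mice against 259, 222 and 228 in wild mice. This sum overlapped between the groups in raw FPKM, the 3 members chosen on this contrast being part of it. It was not scaled for the general shift in FPKM (medians of 5.26 to 6.56 in laboratory mice against 10.7 to 11.3). An equal level of the family is therefore not read from it. Within that sum the order of the loci differed between the groups. Gm13841 had 11.5, 14.4 and 12.5 in laboratory mice against 94.7, 79.5 and 82.6 in wild mice, and was lower in laboratory mice by limma with Benjamini-Hochberg adjustment (-0.71 zFPKM, adjusted p = 4.02e-05). Gm8210 had 5.57, 5.71 and 4.14 against 60.6, 48.9 and 53.0 (-0.95 zFPKM, adjusted p = 6.47e-07 from limma). In wild mice these 2 loci had the highest FPKM of the family, and in laboratory mice Rpl29 and Gm5561 did.

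Of the 17 family loci tested that were not members, Rpl29 included, limma called 2 higher in laboratory mice (Rpl29 and Gm10709) and 3 lower (Gm13841, Gm8210 and Gm11533). Gm10709 was the weakest of these (adjusted p = 0.0403 from limma) and was not called without laboratory mouse 1, without laboratory mouse 2 or without any one wild mouse (adjusted p = 0.254, 0.213, 0.108, 0.0719 and 0.173). With sex as a covariate Gm13841, Gm11533 and Gm10709 were not called (adjusted p = 0.0541, 0.0583 and 0.0731 from limma). Without limma's trend Gm13841, Gm8210 and Gm10709 were not called (adjusted p = 0.0963, 0.0669 and 0.202), and without the filter none of the 5 was. FPKM is per transcript length, so the sum does not count fragments, and whether reads of a single transcript were placed on different copies in the 2 groups was not tested. The summed FPKM of the Rpl35 family was 1243, 1201 and 1283 in laboratory mice against 467, 471 and 451 in wild mice. That sum holds little beside Rpl35 and the member Gm2000, whose own values the rule used, and it is given as a description.

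**Figure D4:**
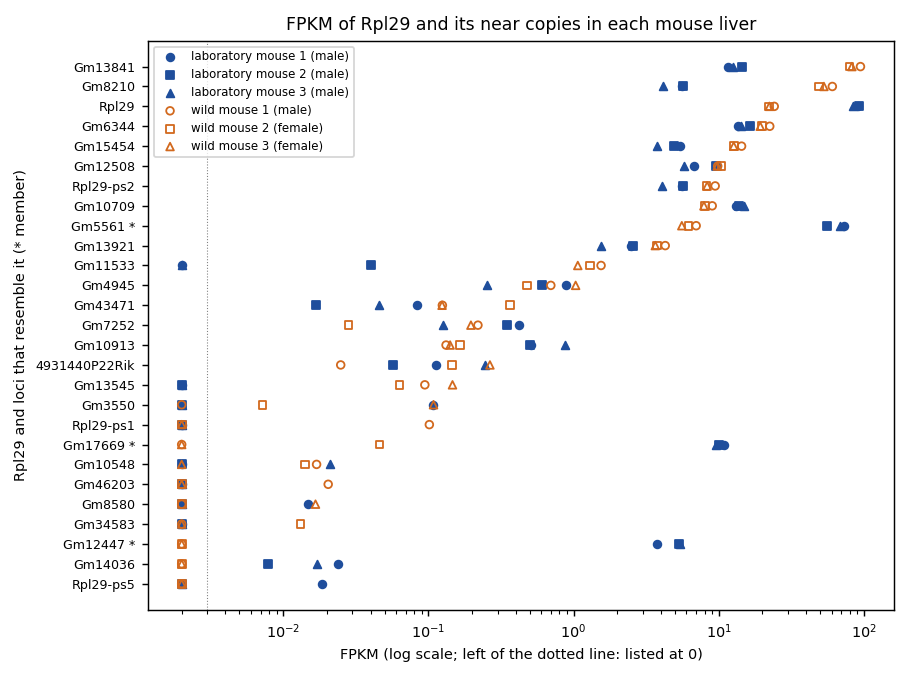
FPKM (log axis) of Rpl29 and the loci that resemble it in each of the 6 mice, leaving out loci at 0 in all, ordered by wild mean; members carry an asterisk and points left of the dotted line are listed at 0. Gm13841 and Gm8210 lead in the wild mice (open orange), and Rpl29 and Gm5561 in the laboratory mice (filled blue).

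For Gm10925 no such comparison could be made. Mitochondrial Atp6, to which its transcript is identical, was listed at 0 in all 3 laboratory mice and at 21832, 14558 and 13850 in the wild mice. In laboratory mice 2 and 3 the 0 was marked HIDATA, the label for too many fragments, so it does not show a low level. Laboratory mouse 1 had no such marks for any gene. Whether the laboratory values of Gm10925 hold fragments of the mitochondrial gene was not tested.

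The genes around the members were the other measure that the rule had not used. Within 50000 bases of a member lay 85 genes with names of other kinds, of which 71 were tested. By limma 6 of the 71 (8.45%) were higher in laboratory mice and 4 (5.63%) lower, and 61 were not called. These shares were near the 7.17% and 7.28% of all genes tested. The median difference of the neighbours was 0.06 zFPKM, against 0.005 over all genes tested. All 33 members were called higher by the same fit, with differences from 1.05 to 3.66, but they had been chosen on this contrast and nothing is read from that.

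**Figure D5:**
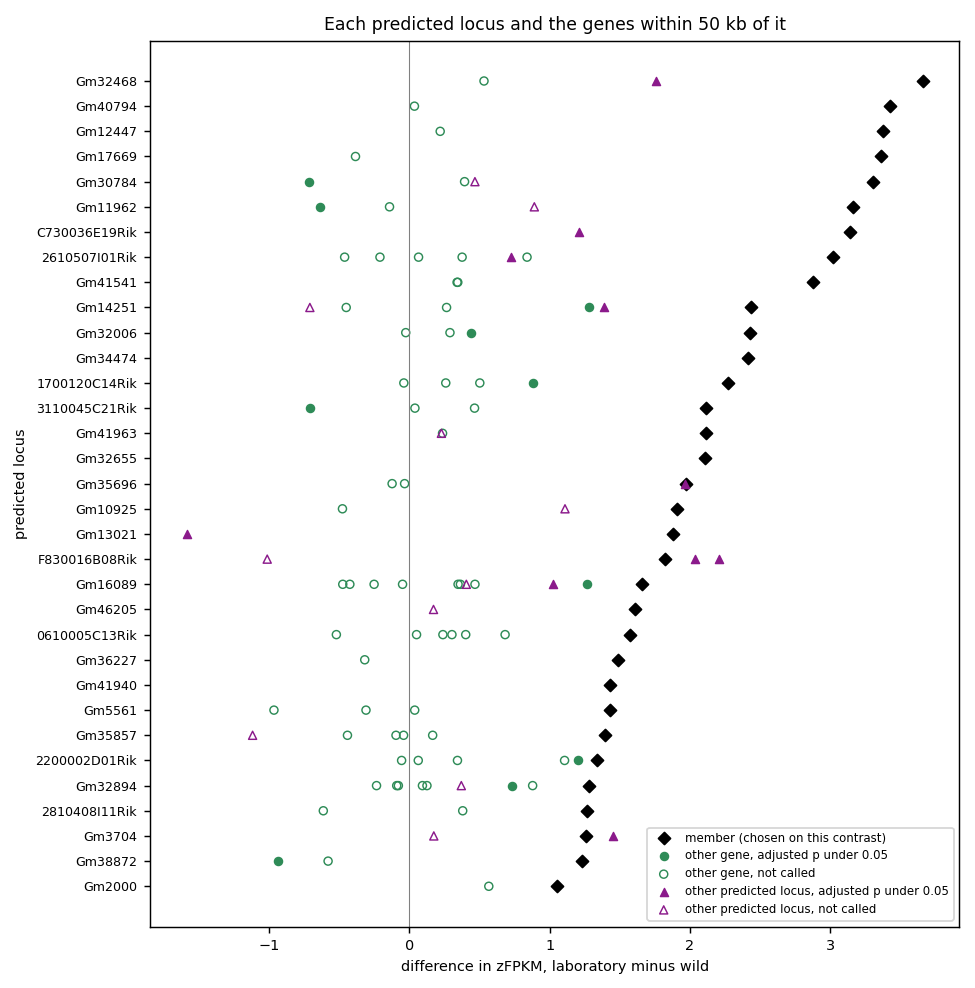
Difference in zFPKM, laboratory minus wild, of each member (black diamonds, chosen on this contrast) and of the tested genes within 50 kb of it (green circles, or purple triangles for other predicted loci; filled where the adjusted p was under 0.05). Most neighbours lie around 0 with open symbols, and Cnbd2 (1.28) at Gm14251 is the farthest to the right of the green circles.

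The clearest neighbour was Cnbd2, whose product carries a cyclic nucleotide binding domain. It contains Gm14251 on the same strand (chr2:156322373-156322742 within chr2:156311946-156375638) and had 55.8, 45.6 and 65.6 in laboratory mice against 7.63, 6.97 and 6.77 in wild mice (1.28 zFPKM, limma with Benjamini-Hochberg adjustment, adjusted p = 2.39e-13). Gm14251 itself had 4.71, 2.36 and 1.28 in the laboratory mice, was listed at 0 in wild mice 1 and 2 and had 0.250 in wild mouse 3. Across the laboratory mice the order was different, Cnbd2 being highest in laboratory mouse 3 and Gm14251 in laboratory mouse 1. Ppp1r14a, which encodes an inhibitor of protein phosphatase 1, lies 40852 bases from 2200002D01Rik and had 16.7, 15.5 and 16.8 against 2.07, 3.79 and 1.88 (1.20 zFPKM, adjusted p = 2.54e-07 from limma). Both genes stayed called with any one mouse left out.

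Sap25, which encodes a partner of the Sin3A corepressor, lies 25379 bases from Gm16089 and had 2.70, 1.64 and 8.77 against 0.164, 0.414 and 1.55 (1.27 zFPKM, adjusted p = 8.25e-04 from limma, and 0.0702 without laboratory mouse 3). Prpf40b, a splicing factor gene 33034 bases from 1700120C14Rik, had 3.56, 4.06 and 10.3 against 1.502, 1.33 and 1.81 (0.88 zFPKM, adjusted p = 0.00505 from limma, and 0.0534 and 0.0521 without laboratory mouse 1 or 2). The member there, 1700120C14Rik, had 1.60, 2.40 and 1.16 in the laboratory mice, 0.227 in wild mouse 3 and 0 listed in the others. Laboratory mouse 3 was the highest for Sap25 and Prpf40b and the lowest of its group for 1700120C14Rik.

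Osgin1, an oxidative stress response gene, overlaps Gm32006 on the opposite strand (chr8:119415104-119429562 and chr8:119425882-119446257). It had 314, 170 and 105 in laboratory mice against 204, 116 and 69.3 in wild mice, so the groups overlapped, and the call (0.44 zFPKM, adjusted p = 0.00268 from limma) was lost without laboratory mouse 1, wild mouse 1 or wild mouse 3 (adjusted p = 0.287, 0.0517 and 0.164). It was also lost on log2(FPKM + 0.1) and log2(FPKM + 1) (adjusted p = 0.362 and 0.389), after quantile normalization (0.0601), with each mouse at a median of 0 (0.144), with sex as a covariate (0.513), without the trend (0.347), with a floor of -5 (0.0753) and without the filter (0.450). Gm32006 had 9.58, 4.54 and 7.59 against 0.315, 0.249 and 0 listed, without overlap. LOC115489992, 6070 bases from Gm32894, had 3.78, 3.95 and 3.01 against 1.40, 1.06 and 1.495 (0.73 zFPKM, adjusted p = 0.0473 from limma). That call held only without laboratory mouse 3 among the fits that left out a mouse, the others giving an adjusted p from 0.0894 to 0.337.

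The 4 named neighbours that were lower in laboratory mice were Slco1a4, Hsd17b7, Sumf1 and Ccdc117. Slco1a4, which encodes an organic anion transporter, lies 10071 bases from Gm30784 and had 3.53, 4.66 and 9.40 in laboratory mice against 26.3, 47.1 and 46.5 in wild mice (-0.72 zFPKM, adjusted p = 5.54e-04 from limma), whereas Gm30784 had 5.77, 3.89 and 3.54 and was listed at 0 in the wild mice. Hsd17b7, an enzyme of cholesterol and steroid synthesis, starts 166 bases from 3110045C21Rik on the other strand and had 1.30, 1.63 and 1.71 against 13.2, 7.17 and 11.2 (-0.71 zFPKM, adjusted p = 0.0183 from limma). At 3110045C21Rik the values were 1.52, 2.85 and 4.02 against 0.223, 0 listed and 0.216. The lncRNA and the enzyme gene next to it thus differed in opposite directions.

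Sumf1, which activates the cell's sulfatases, lies 26664 bases from Gm38872 and had 1.10, 1.06 and 0.9996 against 13.3, 11.3 and 8.47 (-0.94 zFPKM, adjusted p = 0.00163 from limma), and Gm38872 had 6.05, 4.90 and 6.10 against 0.719, 0.729 and 0.947. Ccdc117 lies 33439 bases from Gm11962 and had 1.58, 1.88 and 1.96 against 9.07, 11.4 and 11.4 (-0.64 zFPKM, adjusted p = 0.0340 from limma), and Gm11962 had 1.72, 2.86 and 5.59 and was listed at 0 in the wild mice. None of the 4 was called with sex as a covariate (adjusted p = 0.240, 0.165, 0.108 and 0.440 for Slco1a4, Hsd17b7, Sumf1 and Ccdc117, from limma), although all kept their direction. The call on Ccdc117 was lost without each laboratory mouse (adjusted p = 0.0649, 0.0750 and 0.0896 from limma). Without wild mouse 3 a single one of the 4 was called, and likewise without wild mouse 2.

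Of the 14 named genes that overlap a member, 13 were tested, and Cnbd2 and, less firmly, Osgin1 were the ones called higher, none being called lower. Bcat2, the mitochondrial branched-chain aminotransferase opposite 0610005C13Rik, had 7.33, 8.74 and 16.2 in laboratory mice against 13.6, 12.5 and 21.6 in wild mice (0.05 zFPKM, adjusted p = 0.9001 from limma). Baat, which conjugates bile acids to amino acids and lies opposite Gm32894, had 73.5, 94.6 and 107 against 109, 124 and 151 (0.09 zFPKM, adjusted p = 0.699 from limma). Neither gene was called, and both were lower in mean FPKM in laboratory mice but not in zFPKM. Libraries were stranded, but whether strand was used in the counting is not given in the sources used here.

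Slco1a1, a male-biased transporter gene 31660 bases from Gm30784, had 32.4, 35.0 and 38.5 in laboratory mice, while the wild male had 135 and wild mice 2 and 3 had 2.65 and 39.5 (0.39 zFPKM, adjusted p = 0.0529 from limma). For a list of 10 male-biased liver genes the summed FPKM was 1113 to 1738 in the laboratory mice, 1198 in the wild male and as low as 190 in the wild females. For 14 female-biased genes it was 4.71 to 8.70 in the laboratory mice, 239 in the wild male and as high as 9275 in the wild females. Of the 14, 13 were lower in every laboratory mouse than in every wild mouse. FPKM as a whole was also lower in laboratory mice, and the share of all genes with such a gap is not given here. For the members, the mean laboratory level was 4.89 to 42.2 times that of the wild male at the 22 loci where that male was above 0, a span whose lower end the rule itself fixes, so nothing about sex is read from it.

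The other predicted loci within 50000 bases of a member were counted after the values had been seen. Of 47 such loci 21 were tested, and limma called 9 higher (42.9%) and 1 lower in laboratory mice, while among all 3822 predicted loci tested 10.8% were higher and 7.56% lower. The nearest of those that did not overlap a member was Gm8941, 70 bases before C730036E19Rik on the same strand, with 2.64, 3.69 and 2.46 in laboratory mice against 1.31, 0.174 and 0.259 in wild mice (1.21 zFPKM, adjusted p = 0.00285 from limma). The others were Gm45947 and Gm46635 at F830016B08Rik, Gm40739 at Gm32468, Gm40787 at Gm35696, Gm39972 at Gm14251, Gm20605 at Gm16089, Gm36579, which overlaps Gm3704, and 2310033P09Rik at 2610507I01Rik, and the locus called lower was Gm13017 at Gm13021. Overlapping or adjoining models may share a transcript, which was not tested. Without laboratory mouse 1 or laboratory mouse 2 the count of 9 became 5.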

How the data were processed

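Liver RNA-Seq of 3 laboratory and 3 wild mice was used. The authors aligned single reads of 100 bases to a repeat-masked RefSeq GRCm38.p6 with kalign and deposited FPKM from the Tuxedo pipeline. They also deposited zFPKM, a score made from log2 FPKM within each mouse. How the counting treated strand and multiple matches is not given in the sources used here. No counts were used, so the edgeR test of the study's methods was not run, and depth is unknown. Of 47256 names listed once for every mouse, 13 marked HIDATA in any mouse were left out.

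zFPKM was compared between groups with limma 3.58.1 in R 4.3.3 (lmFit, eBayes with trend, two-sided, Benjamini-Hochberg adjustment, adjusted p under 0.05) for genes above -3 in at least 3 mice, lower values being set to -3. The test was also tried on simulated, normally distributed values to which no floor was applied. That trial does not show how the test performs on these data. Transcripts were compared with blastn 2.17.0 on the plus strand. Tables were made with Python 3.11.15, numpy 2.4.6 and pandas 2.3.3. Replicate numbers follow listing order and pair nothing. By limma's trend, a gene's variance was set by that of genes at a similar level. In the main fit the p-values match those of a normal distribution. Standard errors and p-values there rest on the trend, and a gene's own spread between mice had no visible weight. They cover these mice only.

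Members and lists were chosen with earlier results of these data known. By rule, every member was named, and values in every mouse were given for the 10 most abundant, those near a called gene and those nearest the threshold. Gm12447, Gm40794 and a few others, with the parent genes and their families, were added after their values were seen. Alternatives were other folds, floors, pseudocounts, filters and scalings, sex as a covariate, the wild male alone, other distances and leaving out each mouse.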

Additional observations from a re-analysis of the deposited data

How the results depend on the processing

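The number of members, 33, became 104 at a fold of 2, 14 at 8, 52 with a lowest laboratory FPKM of 0.5, 105 after median scaling, 84 after quantile normalization and 66 against the wild male alone. Leaving out 1 mouse gave 38 to 51. The members called by limma were 3 without the filter on low values and 31 to 33 with 1 mouse left out.

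Named neighbours called higher, 6, became 0 without the filter, 3 without the trend, 14 after quantile normalization, 12 with each mouse at a median of 0, 3 within 10000 bases and 13 within 200000, and 3 to 9 with 1 mouse left out. Those called lower, 4, became 29 on log2(FPKM + 0.1) and 27 on log2(FPKM + 1), scales on which the median gene was shifted by -0.47 and -0.20, then 0 without the filter, 0 without the trend, 0 with sex as a covariate, 13 after quantile normalization, 10 with each mouse at a median of 0, 1 within 10000 bases, 12 within 200000 and 1 to 4 with 1 mouse left out. Predicted neighbours called higher, 9, became 0 without the filter, 5 without the trend, 5 with sex as a covariate, 5 within 10000 bases and 5 to 10 with 1 mouse left out. The 1 called lower became 3 on log2(FPKM + 0.1), 2 on log2(FPKM + 1), 0 without the filter, 0 without the trend, 3 after quantile normalization, 3 with each mouse at a median of 0, 0 with sex as a covariate, 0 within 10000 bases, 5 within 200000 and 0 to 1 with 1 mouse left out. The cause of these changes was not tested.

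None of the 10 named neighbours called changed direction under any alternative; 88 of their repeated results stayed called and 52 did not. Without the filter more genes at or near 0 entered the fit and all 10 calls were lost. The depth of the libraries is unknown, so a listed 0 cannot be told from a low level. With 3 mice a group and 1 wild male, sex and origin cannot be separated.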
